A study of Mus musculus with 9 samples.

Results

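Glomeruli of leptin-deficient ob/ob mice were compared with glomeruli of wild-type mice, both on vehicle food. Members of the comparison were chosen by their sample titles, which give 3 arrays of ob/ob vehicle and 3 of wild-type vehicle, 6 of the 9 arrays of the study. All mice were male BTBR animals, wild type or ob/ob, aged 22 weeks. They received food without drug over the 18-week treatment, after which glomeruli were isolated with magnetic Dynabeads. The remaining 3 arrays, from ob/ob mice given the drug enarodustat, were used only for the shared estimate of the spread. Total RNA was labelled with Cy3 and each sample was hybridised to its own one-colour Agilent mouse array. The labels do not say whether a sample came from a single mouse or a pool, so the p-values measure the spread between these samples, which may be technical.

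The ob allele is a nonsense mutation of the leptin gene, so the mice carry the mutation in every cell and become obese. On the BTBR background they also develop diabetes with kidney disease, and the strain is used as a model of diabetic nephropathy. A glomerulus is a tuft of capillaries held by mesangial cells and covered by podocytes, whose interlocking foot processes and slit diaphragms, with the basement membrane, form the filtration barrier. Obesity, high glucose and leptin deficiency are joined in the ob/ob genotype and cannot be told apart here.

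Levels are log2 of the processed signal minus the 75th percentile of the array, so that 0 is the 75th percentile. Differences are ob/ob minus wild type on that log2 scale, given with the standard error of limma for 3 arrays against 3. A feature was called at an adjusted p under 0.05, with Benjamini-Hochberg adjustment over all 24174 features, and "rose" and "fell" are used only of called features. The levels of Lep were -0.64, -1.03 and -0.75 on the wild-type arrays and -0.81, -0.91 and -1.06 on the ob/ob arrays, a difference of -0.12 ± 0.13 (adjusted p = 0.631). A nonsense allele need not change the level read by a probe, so this does not check the genotype. Podocyte and endothelial genes that define glomeruli were well above background on all 6 arrays, with levels of Podxl, the gene of the podocyte surface sialomucin, of 5.13, 5.23 and 5.24 on the wild-type arrays and 4.54, 4.36 and 4.43 on the ob/ob arrays, and of the glomerular endothelial gene Ehd3 of 6.60, 6.32 and 6.33 on the wild-type arrays and 6.87, 6.46 and 6.43 on the ob/ob arrays.

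All 6 arrays were on the same slide and had the same scan number. The 75th percentile of the processed signal ran from 210.4 units on wild-type replicate 3 to 325.3 on wild-type replicate 1, and 62.9% to 68.3% of probes were well above background. Correlations across probes were 0.978 to 0.987 within the 2 groups and 0.967 to 0.981 between them. Markers of the proximal tubule, the nephron segment that follows the glomerulus, stood apart on 1 array of each group. Their median level was 0.03, -0.47 and 2.57 on the wild-type arrays and -0.80, -0.23 and -2.91 on the ob/ob arrays. Wild-type replicate 3 was highest and ob/ob replicate 3 lowest. On the slide, the wild-type arrays and ob/ob replicate 1 were in the first row and ob/ob replicates 2 and 3 in the second. The part of tubule RNA and slide row in the differences was not tested. Counts of called members are therefore also given from fits with the mean of the tubule markers as a covariate, with the slide row as a block, and without both replicate 3 arrays, all added after seeing the data. The counts of these 3 added fits are given in that order. The brightest probe stood for a gene, and where not all probes of a called gene were called, the range of the probes' differences is given. Counts of rises include genes not well above background on any wild-type array, which were kept only through arrays of ob/ob mice. The counts and medians of their lists depend in part on that filter.

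**Figure D1:**
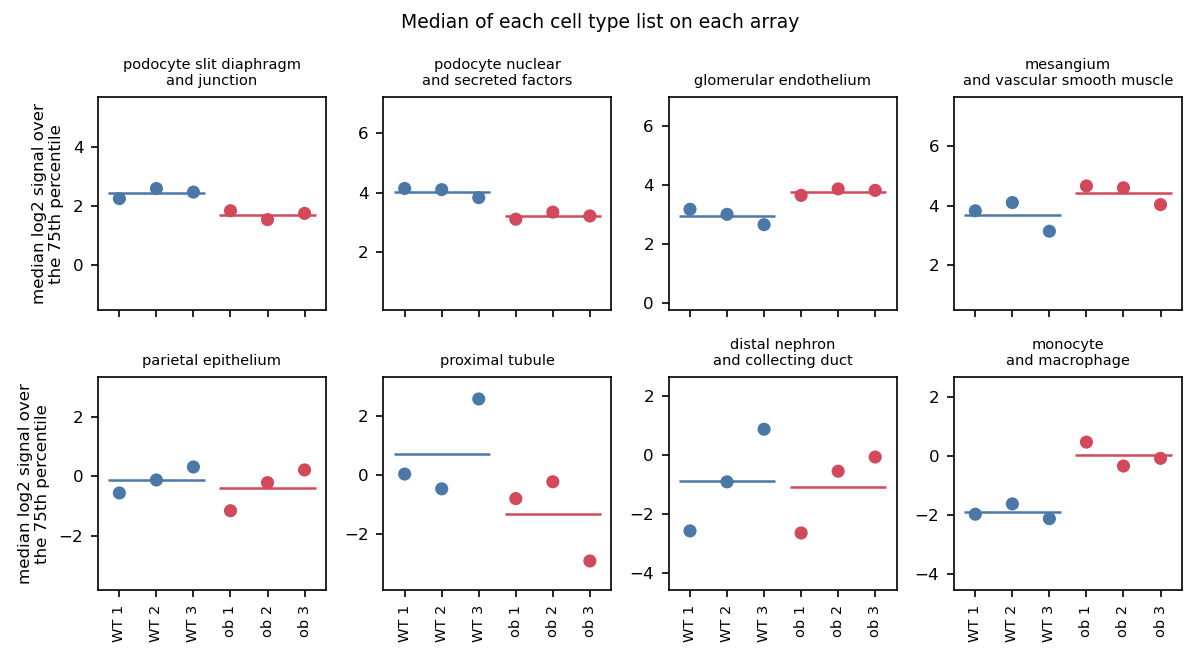
Median log2 signal over the array's 75th percentile (y axis) for 8 lists of cell type markers on each of the 6 arrays (x axis; WT, wild-type vehicle; ob, ob/ob vehicle); lines are group means. The macrophage medians of the groups do not overlap, while the tubule medians are highest on wild-type replicate 3 (2.57) and lowest on ob/ob replicate 3 (-2.91).

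Of the 24174 features, 1826 (7.55%) were called, 1181 higher (4.89%) and 645 lower (2.67%) in ob/ob glomeruli. The median difference over all features was 0.02. Of the called features, 971 differed by at least 2-fold, 1551 had a gene name, and 721 were called in every fit that left out 1 of the 6 arrays. The count fell to 573 with the tubule covariate, of which 543 were also called with the same sign in the fit on all 9 arrays. It fell to 730 with the slide row as a block, 687 of them shared, and to 670 without both replicate 3 arrays, 616 of them shared. All 1826 kept the sign of their difference in these 3 fits. Among fits that left out 1 array, the counts of higher and lower features were 690 and 278 without wild-type replicate 2, 777 and 400 without wild-type replicate 3, 635 and 282 without ob/ob replicate 1, 796 and 393 without ob/ob replicate 2 and 725 and 393 without ob/ob replicate 3.

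**Figure D2:**
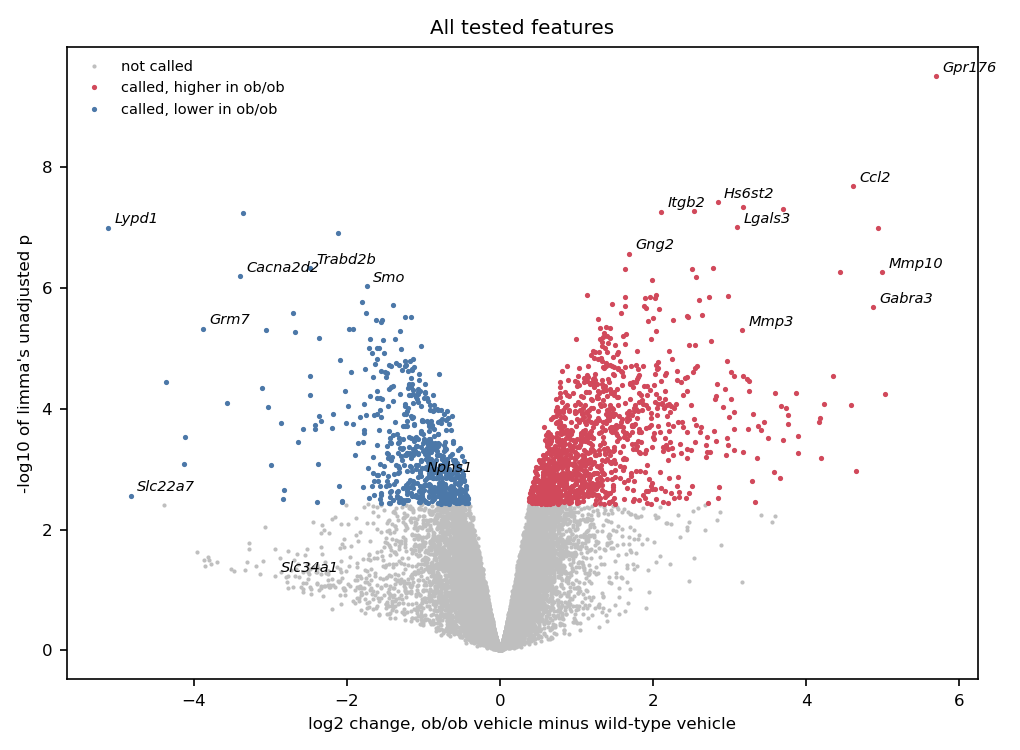
Difference between ob/ob and wild-type vehicle glomeruli (x axis, log2) against -log10 of limma's unadjusted p (y axis) for all 24174 tested features; red points were called higher (1181), blue points lower (645) and grey points not called. Gpr176 has the smallest p and the highest fitted difference, and Slc34a1 lies among the features that were not called.

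The smallest p belonged to Gpr176, an orphan G protein-coupled receptor. It is singled out after its values were seen, as it was well above background on only 2 of the wild-type arrays. Its levels were -4.56, -5.02 and -5.06 on the wild-type arrays and 0.99, 0.57 and 0.90 on the ob/ob arrays, a difference of 5.70 ± 0.18 (adjusted p = 7.42e-06). All ob/ob arrays were thus slightly above the 75th percentile and all wild-type arrays far below it. Among genes well above background on all 6 arrays, Ccl2 led. It encodes the chemokine that draws monocytes through the receptor Ccr2. The levels of Ccl2 were -2.82, -3.46 and -2.74 on the wild-type arrays and 1.80, 1.26 and 1.75 on the ob/ob arrays, a difference of 4.61 ± 0.24 (adjusted p = 0.000174). Hs6st2, which adds 6-O-sulfate to heparan sulfate, was at -3.64, -3.93 and -3.88 on the wild-type arrays and -1.25, -0.88 and -0.80 on the ob/ob arrays, a difference of 2.84 ± 0.16 (adjusted p = 0.000174). The protocadherin gene Pcdh7 was at -3.82, -4.02 and -3.73 on the wild-type arrays and -0.44, -0.61 and -0.98 on the ob/ob arrays and differed by 3.18 ± 0.18 (adjusted p = 0.000174). In none of these genes did any ob/ob array reach down to the highest wild-type array, and the spread within a group was under 1 log2 unit for Hs6st2 and Pcdh7.

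Slpi, Prss23 and Itgb2 followed with the same adjusted p of 0.000174. Slpi, an inhibitor of neutrophil serine proteases, was at -2.26, -1.96 and -1.99 on the wild-type arrays and 1.49, 1.90 and 1.5 on the ob/ob arrays, a difference of 3.70 ± 0.21. That is the brighter of its 2 probes, and the other differed by -0.11, so the rise of Slpi rests on 1 probe. The serine protease gene Prss23 was at -0.76, -1.02 and -0.47 on the wild-type arrays and 1.76, 1.74 and 1.87 on the ob/ob arrays, a difference of 2.54 ± 0.14. Itgb2, the beta chain shared by the leukocyte integrins, was at -2.27, -2.3 and -2.48 on the wild-type arrays and -0.08, -0.26 and -0.38 on the ob/ob arrays, a difference of 2.11 ± 0.12. The 3 ob/ob arrays lay closer to each other than the gap between the groups for each of these genes. Lgals3 encodes galectin-3, abundant in macrophages and in some epithelia. Its levels were 0.45, 0.93 and 1.18 on the wild-type arrays and 3.74, 4.05 and 4.05 on the ob/ob arrays, a difference of 3.10 ± 0.19 (adjusted p = 0.000223). Further genes of this group were Gng2, a G protein gamma subunit (1.69 ± 0.12), the guidance cue gene Sema3d (2.51 ± 0.19), the fibril-associated collagen gene Col14a1 (1.64 ± 0.12) and the ubiquitin hydrolase gene Uchl1 (2.56 ± 0.20). The smallest difference among the 12 was that of Fam102b, at 1.13 ± 0.10, whose wild-type levels were 0.90, 0.85 and 0.89 and ob/ob levels 1.99, 1.98 and 2.07.

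Among the genes that fell, Trabd2b had the smallest p. It encodes a protease that inactivates Wnt proteins, and its levels were 1.57, 1.91 and 1.79 on the wild-type arrays and -0.67, -0.71 and -0.81 on the ob/ob arrays, a difference of -2.48 ± 0.18 (adjusted p = 0.000702). Cacna2d2, an auxiliary subunit of voltage-gated calcium channels, was at 1.82, 2.07 and 1.19 on the wild-type arrays and -1.69, -1.34 and -2.07 on the ob/ob arrays, a difference of -3.39 ± 0.26 (adjusted p = 0.000771). Smo, the signal transducer of the hedgehog pathway, was at 4.60, 4.73 and 4.47 on the wild-type arrays and 2.76, 3.11 and 2.72 on the ob/ob arrays, a difference of -1.74 ± 0.14 (adjusted p = 0.000981). Of these, the ob/ob levels of Cacna2d2 and Trabd2b were below the 75th percentile on all 3 arrays, and those of Smo stayed well above it. The integrin gene Itgb8, whose product activates latent TGF-beta, was at 1.86, 2.10 and 1.99 on the wild-type arrays and 0.28, 0.65 and 0.42 on the ob/ob arrays, a difference of -1.53 ± 0.15 (adjusted p = 0.00157). Fgfbp1, a carrier that frees fibroblast growth factors from the matrix, was at 4.85, 4.64 and 4.69 on the wild-type arrays and 2.48, 3.07 and 2.87 on the ob/ob arrays, a difference of -1.92 ± 0.19 (adjusted p = 0.0019). Kcnj12, an inward rectifier potassium channel, was at 2.41, 2.45 and 1.88 on the wild-type arrays and 0.09, 0.59 and 0.15 on the ob/ob arrays, a difference of -1.97 ± 0.19 (adjusted p = 0.0019). Groups did not overlap for any of these genes, as the choice of the leading genes required. Over all features the groups did not overlap for 7431 (30.7%). Dusp15 (-1.74 ± 0.16), Gpld1 (-1.62 ± 0.15), Klhl32 (-1.37 ± 0.14), Samd5 (-1.53 ± 0.16), Slc26a7 (-1.61 ± 0.17) and Kcnu1 (-1.71 ± 0.19) completed the 12 that fell with the smallest p. Called probes numbered 3 of 4 for Dusp15 (-1.74 to -1.01). Lypd1, singled out after its values were seen, was called lower and was not well above background on any ob/ob array. It is therefore given as a bound, at least 21.1-fold lower. Such bounds set the mean of the bright group against the higher of the dim probe's signal and the lowest signal well above background on each array.

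**Figure D3:**
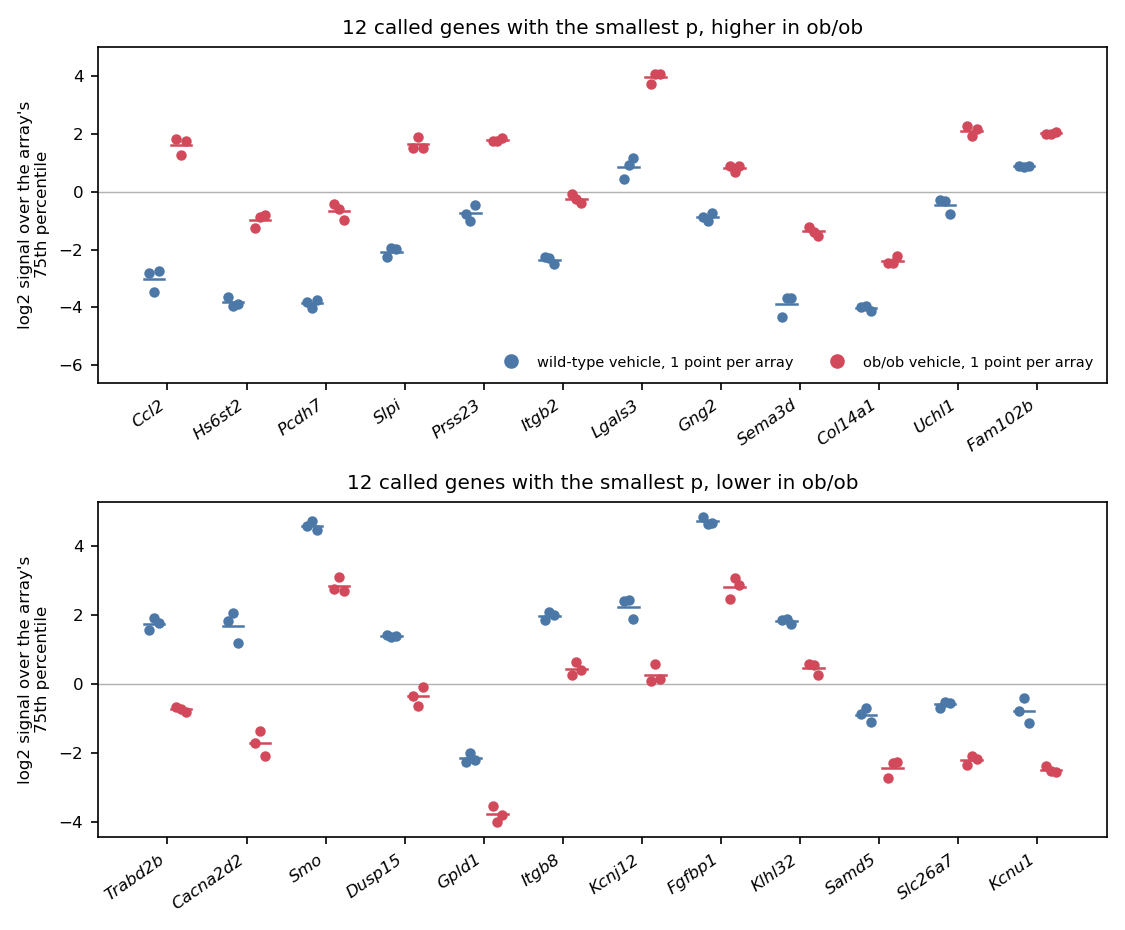
Log2 signal over the array's 75th percentile (y axis) for the 12 genes called higher (upper panel) and the 12 called lower (lower panel) with the smallest p among genes well above background on all 6 arrays; each point is an array and each line a group mean. The ob/ob points lie above all wild-type points in the upper panel and below them in the lower panel, which the choice of these genes required.

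Monocyte and macrophage markers were the cell type list with the most calls, 20 of 32 higher and none lower (62.5% called, against 7.55% over all features). The 20 include Fcgr1, kept only through ob/ob arrays, so the count depends in part on that filter. Of the 32 differences 30 were above 0 and 2 below, the lowest at -1.56. The median difference was 1.81, and the list's median level was -1.97, -1.62 and -2.12 on the wild-type arrays and 0.47, -0.34 and -0.08 on the ob/ob arrays. The fits described above called 8 with the tubule covariate, 10 with the slide row as a block and 10 without both replicate 3 arrays. In whole glomeruli, fewer or more cells of a type and less or more RNA per cell cannot be told apart. Cx3cr1, the receptor of resident and patrolling monocytes, was at -2.35, -1.37 and -2.07 on the wild-type arrays and 0.32, 0.15 and -0.24 on the ob/ob arrays, a difference of 2.01 ± 0.26 (adjusted p = 0.0043). Adgre1, the F4/80 antigen of macrophages, was at -4.34, -3.6 and -3.86 on the wild-type arrays and -0.10, -1.71 and -1.53 on the ob/ob arrays, a difference of 2.82 ± 0.49 (adjusted p = 0.0121). Ccr2, the receptor for the Ccl2 protein, was at -3.72, -3.78 and -4.26 on the wild-type arrays and -2.20, -2.14 and -2.35 on the ob/ob arrays, a difference of 1.69 ± 0.25 (adjusted p = 0.00706). Each ob/ob array exceeded each wild-type array for these 3 genes. Laptm5, a lysosomal membrane protein of leukocytes, rose by 1.44 ± 0.15. Cd52 of lymphocytes and monocytes, which is counted in the lymphocyte list and not in this one, rose by 1.45 ± 0.20.

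Markers of other leukocytes gave 5 calls. Of 20 lymphocyte markers 4 rose (20% called), with a median difference of 0.32, and the added fits called 3, 3 and 5. Zap70, a kinase of T cell receptor signalling, was at -4.06, -3.44 and -2.93 on the wild-type arrays and -0.94, -1.01 and -1.53 on the ob/ob arrays, a difference of 2.32 ± 0.28 (adjusted p = 0.00366). The T cell kinase gene Lck rose by 1.12 ± 0.15, with called probes numbering 1 of 2 for Lck (0.40 to 1.12). The T cell coreceptor genes Cd4, Cd8a and Cd8b1, named after their values were seen, were not called. They differed by 0.03 ± 0.14 (adjusted p = 0.933), -0.25 ± 0.19 (adjusted p = 0.471) and 0.43 ± 0.12 (adjusted p = 0.0653). Of the 20 differences in the list 15 were above 0 and 5 below. Nkg7 of cytotoxic cells rose by 1.2 ± 0.27, a call not made without wild-type replicate 2 or without ob/ob replicate 1, 2 or 3 (adjusted p up to 0.0991). Of 13 neutrophil and mast cell markers only Ly6g rose (1.52 ± 0.26). That is 7.69% called, near the 7.55% over all features. The list's median difference was 0.06, with 7 differences above 0 and 6 below. The added fits called 1, 0 and 0 of the list. Ly6g belongs to a family of similar genes, and its probe could read others of them. None of 10 erythrocyte and 6 adipocyte markers was called in limma, and 2 and 1 of them had an unadjusted p under 0.05. The erythrocyte list had a median difference of 1.57 with groups that overlapped, its median levels being -0.82, -1.83 and -1.58 on the wild-type arrays and -1.25, -1.44 and -0.43 on the ob/ob arrays.

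Calls among chemokine ligands and receptors were all rises. Of 21 ligands 9 rose and none fell (42.9% called), with a median difference of 0.79. Of 16 receptors 3 rose (18.8%), with a median of 0.08. Over all features 7.55% were called. The difference between these counts was not tested. Besides Ccl2, the monocyte attractant gene Ccl6 was at -1.14, -1.4 and -2.45 on the wild-type arrays and 0.63, 0.75 and 0.97 on the ob/ob arrays (difference 2.44 ± 0.33). Ccl9 was at -2.00, -2.28 and -2.89 on the wild-type arrays and -0.30, -0.30 and -0.44 on the ob/ob arrays (difference 2.04 ± 0.28). Ccl24, an eosinophil attractant also made by alternatively activated macrophages, was not well above background on any wild-type array and was at least 4.06-fold higher (adjusted p = 0.00351). It was kept only through ob/ob arrays, so the ligand count and median depend in part on that filter. Each of these ligands was higher on every ob/ob array than on any wild-type array. The receptors were Cx3cr1, Ccr2 and Ccr8 (0.82 ± 0.12). Cx3cr1 and Ccr2 are also members of the macrophage list, so these counts are not separate. Ligand calls numbered 5 with the tubule covariate, 5 with the slide row as a block and 4 without both replicate 3 arrays, and receptor calls 2, 2 and 2.

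Fc receptors bind antibodies, and macrophages use several of them to take up immune complexes. Of 7 Fc receptor genes 5 rose (71.4% called, against 7.55% over all features), with a median difference of 1.82. The list median was -3.37, -3.81 and -3.79 on the wild-type arrays and -0.75, -1.25 and -1.0 on the ob/ob arrays. Fcgr4, an activating receptor for IgG, was at -3.37, -3.81 and -3.65 on the wild-type arrays and -0.75, -1.25 and -1.0 on the ob/ob arrays, a difference of 2.61 ± 0.22 (adjusted p = 0.00121). Fcer1g, the signalling chain these receptors share, was at 0.04, 0.30 and -0.45 on the wild-type arrays and 1.86, 1.63 and 1.86 on the ob/ob arrays, a difference of 1.82 ± 0.22 (adjusted p = 0.00389). Fcgr1, the high-affinity receptor for IgG, was not well above background on any wild-type array and was at least 2.67-fold higher (adjusted p = 0.00485). It was kept only through ob/ob arrays, so the Fc receptor count and median depend in part on that filter. Fcgr1 and Fcer1g are also members of the macrophage list. Fcgrt, the neonatal receptor that podocytes and endothelium also express, rose by 0.76 ± 0.17, a call not made without wild-type replicate 2 or 3 or without ob/ob replicate 1, 2 or 3 (adjusted p up to 0.107). The members that did not pass, named for that reason, were Fcgr2b, at 0.41 ± 0.32 (adjusted p = 0.482), and Fcer1a, at -0.26 ± 0.23 (adjusted p = 0.535). Of 26 C-type lectins 8 rose (30.8% called), led by Clec4a1 (1.71 ± 0.20), Clec12a (1.53 ± 0.21), Clec10a (2.18 ± 0.33) and Clec4a3 (2.26 ± 0.36). The Clec4a genes are close copies of each other and their probes may share signal. Counts were 3 with the tubule covariate, 4 with the slide row as a block and 3 without both replicate 3 arrays for Fc receptors, and 2 with the tubule covariate, 4 with the slide row as a block and 5 without both replicate 3 arrays for the lectins.

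Calls among Toll-like receptors, which recognise microbial molecules, went in both directions. Of 10 Toll-like receptor genes 4 rose and 1 fell (50% called, against 7.55% over all features). Tlr4, the receptor for bacterial lipopolysaccharide, was at 1.41, 0.78 and 0.78 on the wild-type arrays and 2.74, 2.24 and 2.29 on the ob/ob arrays, a difference of 1.43 ± 0.21 (adjusted p = 0.00647), with called probes numbering 2 of 3 for Tlr4 (0.11 to 1.43). Tlr13 rose by 0.93 ± 0.15. Tlr2 rose by 0.77 ± 0.14, a call not made without wild-type replicate 2 (adjusted p up to 0.0533). The endosomal RNA receptor gene Tlr7 differed in the other direction, at 1.61, 1.42 and 1.07 on the wild-type arrays and 0.30, 0.57 and 0.40 on the ob/ob arrays, a difference of -0.94 ± 0.17 (adjusted p = 0.013). That call was not made without wild-type replicate 2 or without ob/ob replicate 1 (adjusted p up to 0.0537). The added fits called 1, 3 and 2 of the list, and the call with the tubule covariate was Tlr7.

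Calls among oxidase and antioxidant genes were rises. Of 38 genes of NADPH oxidases and antioxidant defence 7 rose and none fell (18.4% called, against 7.55% over all features). Of these, 4 belong to the phagocyte oxidase. Ncf1, its cytosolic p47 subunit, was at -5.00, -4.70 and -4.65 on the wild-type arrays and -2.83, -3.41 and -2.75 on the ob/ob arrays, a difference of 1.78 ± 0.21 (adjusted p = 0.0035). Its catalytic subunit Cybb was at -4.27, -4.29 and -5.56 on the wild-type arrays and -2.10, -2.40 and -2.93 on the ob/ob arrays, a difference of 2.23 ± 0.39 (adjusted p = 0.0123), and was well above background on 2 wild-type arrays. Ncf4, another cytosolic subunit, rose by 1.86 ± 0.27 and the GTPase gene Rac2, which switches the oxidase on, by 1.59 ± 0.15. Counts for the list were 3 with the tubule covariate, 3 with the slide row as a block and 3 without both replicate 3 arrays. Among 14 cathepsins, Ctss was at 0.25, 0.40 and -0.38 on the wild-type arrays and 3.06, 2.38 and 2.50 on the ob/ob arrays (2.55 ± 0.27) and Ctsk, a collagen-degrading cathepsin, at 1.27, 1.14 and 0.14 on the wild-type arrays and 2.77, 2.69 and 2.46 on the ob/ob arrays (1.79 ± 0.28), whereas Ctsh fell, at 4.08, 4.08 and 4.10 on the wild-type arrays and 2.93, 3.10 and 3.04 on the ob/ob arrays (-1.06 ± 0.13). The count of cathepsin calls was 3 in each of the fits with the tubule covariate, with the slide row and without both replicate 3 arrays. Ctss is also a member of the macrophage list.

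The start regions of 3 genes are shown because their genes belong to these myeloid groups and hold letters read by PU.1 or by interferon regulatory factors, both of which act in myeloid cells. They are the 250 bases before the annotated start in RefSeq, build GRCm38.p6, and were chosen after the values were seen. Capitals mark the PU.1 letters GAGGAAGT and the core of the interferon-stimulated response element (ISRE), which is GAAA, any 2 bases and GAAA, on either strand.
Fcgr4, chr1:171018676-171018925, plus strand: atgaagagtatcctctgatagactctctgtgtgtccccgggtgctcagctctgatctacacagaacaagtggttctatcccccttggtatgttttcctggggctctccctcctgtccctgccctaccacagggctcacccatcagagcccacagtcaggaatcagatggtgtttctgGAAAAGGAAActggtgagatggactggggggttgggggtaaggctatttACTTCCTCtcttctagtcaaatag
Ctss, chr3:95526536-95526785, plus strand: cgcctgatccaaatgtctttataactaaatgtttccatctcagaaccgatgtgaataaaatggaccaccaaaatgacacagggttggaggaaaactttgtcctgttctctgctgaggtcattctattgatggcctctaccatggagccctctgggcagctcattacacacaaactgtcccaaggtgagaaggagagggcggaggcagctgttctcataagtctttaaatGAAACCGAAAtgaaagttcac
Cybb, chrX:9469325-9469574, minus strand: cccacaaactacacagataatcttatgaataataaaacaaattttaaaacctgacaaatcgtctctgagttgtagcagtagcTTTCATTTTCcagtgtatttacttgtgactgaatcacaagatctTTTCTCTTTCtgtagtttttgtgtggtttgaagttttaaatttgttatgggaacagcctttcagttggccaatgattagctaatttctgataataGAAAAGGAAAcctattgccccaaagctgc
In Fcgr4 the ISRE core began 73 and the PU.1 letters 24 bases before the start. In Ctss the ISRE core began 21 bases before it. The window of Cybb held 3 such cores, beginning 168, 124 and 29 bases before the start. A match of letters is a description and not evidence of a bound site.

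The same windows were searched for all genes with an entry in the RefSeq table. It held windows for 793 of 1068 genes called higher, 344 of 483 called lower and 12522 of 16459 tested and not called. The PU.1 letters were in 5.1% of 1045 windows of genes called higher, in 0.9% of 448 windows of genes called lower, in 2.3% of 15678 windows of genes not called and in 2.4% of all 32851 windows. The ISRE core was in 4.1%, 2.5% and 2.5% of these 3 sets and in 3.0% of all windows. The AP-1 letters TGANTCA were in 7.6%, 5.1% and 4.9%, and in 6.7% of all windows. The other 9 motifs included the hypoxia-inducible factor core ACGTG, in 157 of 1045 windows of genes called higher, 84 of 448 of those called lower, 3140 of 15678 of those not called and 5444 of all 32851. The NF-kB letters, GGGA, any base and TTTCC, were in 0.5%, 0.7%, 0.4% and 0.4%. Those of CREB (TGACGTCA) were in 1.6%, 2.2%, 2.3% and 1.5%, and those of LMX1B (TAATTA) in 2.9%, 4.7%, 3.1% and 4.8%. The E2F letters TTTCCCGC were in 1.3%, 0.7%, 1.4% and 0.9%, and those shared by WT1 and EGR (GCGTGGGCG) in 1.1%, 0.7%, 0.9% and 0.5%. The TATA box TATAAA was in 9.8%, 8.9%, 8.4% and 12.4%, the Sp1 letters GGGGCGGGG in 14.9%, 15.6%, 16.4% and 10.4%, and CCAAT in 32.0%, 32.1%, 34.9% and 33.8%. No test was made of these shares, and the windows of a gene with several starts overlap or neighbour each other.

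**Figure D4:**
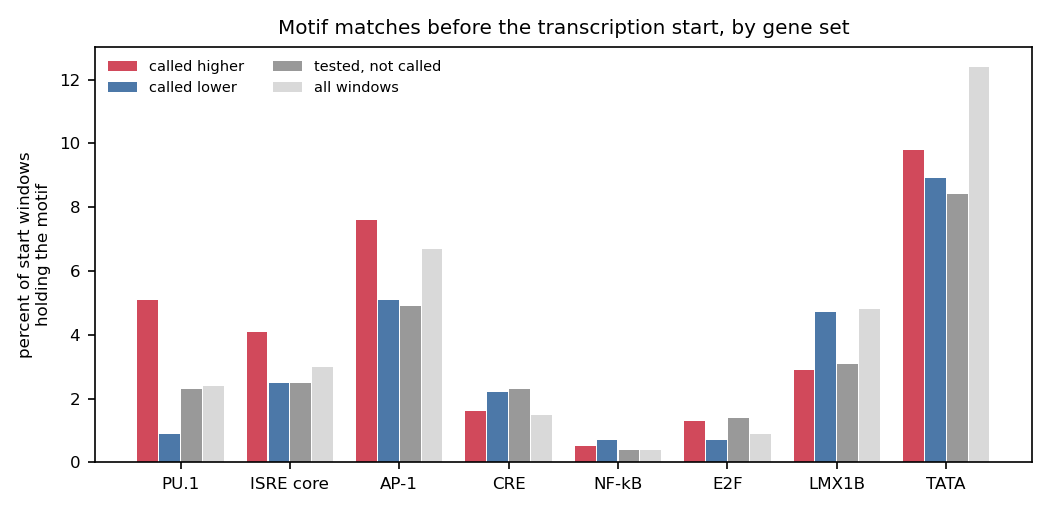
Percent of windows of 250 bases before annotated starts that hold each of 8 motifs (y axis, from 0) for genes called higher in ob/ob glomeruli (red), called lower (blue), tested and not called (dark grey) and for all windows in the table (light grey). The PU.1 share is 5.1% in genes called higher and 0.9% in genes called lower.

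Of 29 complement genes 7 rose and none fell (24.1% called, against 7.55% over all features), and 9 of the differences were below 0. The receptors for the fragments C5a and C3a were not well above background on any wild-type array, and C5ar1 was at least 2.96-fold higher (adjusted p = 0.00115) and C3ar1 at least 2.4-fold (adjusted p = 0.0101). Both were kept only through ob/ob arrays, so the complement count depends in part on that filter. C1ra, a protease that starts the classical pathway, was at 1.81, 1.77 and 1.49 on the wild-type arrays and 3.08, 2.80 and 3.49 on the ob/ob arrays (1.43 ± 0.18). Serping1, the inhibitor of that protease, was at 3.35, 3.21 and 2.57 on the wild-type arrays and 4.42, 4.18 and 4.68 on the ob/ob arrays (1.38 ± 0.22). An activator and its inhibitor were thus both higher on every ob/ob array. Of 39 interferon response genes 7 rose and 1 fell (20.5% called), with a median of 0.52. The genes that rose included the transcription factor genes Irf5 (1.39 ± 0.21) and Irf8 (0.79 ± 0.12). Called probes numbered 1 of 2 for Irf5 (0.08 to 1.39) and 1 of 2 for Irf8 (0.10 to 0.79). Of 41 genes of antigen presentation 5 rose and 1 fell (14.6% called, against 7.55% over all features), with H2-T10 differing by 0.94 ± 0.16 and H2-T22 by 0.81 ± 0.15. These 2 genes are near-identical, so their signals may be shared, and the call of H2-T22 was not made without wild-type replicate 2 or without ob/ob replicate 1 or 3 (adjusted p up to 0.0599). Counts were 2 with the tubule covariate, 3 with the slide row as a block and 5 without both replicate 3 arrays for complement, and 2 with the tubule covariate, 2 with the slide row as a block and 3 without both replicate 3 arrays for the interferon list. For antigen presentation they were 1 with the tubule covariate, 2 with the slide row as a block and 0 without both replicate 3 arrays.

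Called matrix genes were mostly higher. Of 49 matrix glycoproteins and crosslinking enzymes 21 rose and 1 fell (44.9% called, against 7.55% over all features), with a median difference of 0.76. The list's median level was -0.46, -0.35 and -0.57 on the wild-type arrays and 0.84, 0.83 and 0.77 on the ob/ob arrays. Counts were 13 with the tubule covariate, 16 with the slide row as a block and 16 without both replicate 3 arrays. Fn1, the fibronectin gene, was at 0.14, 0.33 and -0.57 on the wild-type arrays and 2.76, 2.85 and 1.84 on the ob/ob arrays, a difference of 2.52 ± 0.31 (adjusted p = 0.0037). Ogn, a small leucine-rich proteoglycan named osteoglycin, was at -0.46, -0.62 and -0.80 on the wild-type arrays and 2.36, 1.80 and 1.89 on the ob/ob arrays, a difference of 2.64 ± 0.24 (adjusted p = 0.00152). Thbs3, a thrombospondin, was at -2.73, -2.46 and -2.22 on the wild-type arrays and -0.99, -0.83 and -0.64 on the ob/ob arrays, a difference of 1.65 ± 0.17 (adjusted p = 0.00206). All 3 were higher on each ob/ob array than on any wild-type array. Spon2, a secreted matrix protein, had a difference of 4.59 ± 0.66 (adjusted p = 0.00604) with a wider spread, at -0.85, -2.99 and -0.61 on the wild-type arrays and 2.03, 3.56 and 3.75 on the ob/ob arrays. The exception was Comp, another thrombospondin family member, which fell from -1.34, -1.26 and -1.15 to -2.97, -3.21 and -3.84, a difference of -2.09 ± 0.24 (adjusted p = 0.00335).

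Collagens other than type IV changed in both directions, 11 of 30 higher and 4 lower (50% called, against 7.55% over all features). Collagen calls in the added fits numbered 6, 9 and 11. Col8a1, a short-chain collagen of endothelial and mesangial matrix, was at 3.31, 2.84 and 2.73 on the wild-type arrays and 5.03, 4.95 and 5.01 on the ob/ob arrays, a difference of 2.04 ± 0.17 (adjusted p = 0.00115). Col12a1, which decorates collagen fibrils, was at 0.21, -0.25 and -0.29 on the wild-type arrays and 2.79, 2.22 and 3.73 on the ob/ob arrays, a difference of 3.02 ± 0.37 (adjusted p = 0.0037). Col5a3 rose by 1.25 ± 0.16. The fibrillar chain genes Col3a1 and Col1a2, named after their values were seen, changed in opposite directions. Col3a1 was at -2.60, -1.71 and -2.88 on the wild-type arrays and -0.36, -0.24 and -0.79 on the ob/ob arrays (1.93 ± 0.28, adjusted p = 0.00639) and Col1a2 at 4.78, 4.74 and 4.64 on the wild-type arrays and 3.66, 3.87 and 3.25 on the ob/ob arrays (-1.13 ± 0.18, adjusted p = 0.0085). Called probes numbered 1 of 3 for Col1a2 (-1.29 to -1.13). Both genes were called in all 6 fits that left out 1 array, and neither with the tubule covariate.

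Basement membrane chains also changed in both directions. Of 29 genes 9 rose and 4 fell (44.8% called, against 7.55% over all features). The type IV collagen of the mature glomerular basement membrane is built of the chains of Col4a3, Col4a4 and Col4a5, made by podocytes, while Col4a1 and Col4a2 form the network of endothelium and mesangium. All 6 chain genes are given here whatever their calls. Col4a2 rose, at 4.45, 4.22 and 4.28 on the wild-type arrays and 5.35, 5.39 and 5.70 on the ob/ob arrays, a difference of 1.17 ± 0.17 (adjusted p = 0.00658). Its partner Col4a1 was at 5.08, 4.53 and 4.75 on the wild-type arrays and 5.05, 5.91 and 6.02 on the ob/ob arrays, a difference of 0.87 ± 0.29 (adjusted p = 0.114), with ob/ob replicate 1 inside the wild-type range. Col4a4 fell, at 4.4, 4.74 and 4.52 on the wild-type arrays and 3.95, 4.02 and 4.06 on the ob/ob arrays, a difference of -0.54 ± 0.12 (adjusted p = 0.0317). Col4a5 did not pass, with 2.36, 2.40 and 2.22 on the wild-type arrays and 1.66, 1.85 and 2.02 on the ob/ob arrays and a difference of -0.48 ± 0.13 (adjusted p = 0.0602). Col4a3 was dim on this array, and differed by -1.60 ± 0.48 (adjusted p = 0.0851). Col4a6 differed by -0.05 ± 0.15 (adjusted p = 0.877). The call of Col4a4 was not made without wild-type replicate 2 or 3 or without ob/ob replicate 1, 2 or 3 (adjusted p up to 0.108). That of Col4a2 was made in all 6 leave-one-out fits and not with the tubule covariate.

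The laminin of the mature barrier is made of the chains of Lama5, Lamb2 and Lamc1, and chains outside it include Lamb1 and Lama2. Lamb1 was at 3.94, 3.73 and 3.29 on the wild-type arrays and 4.39, 4.45 and 4.28 on the ob/ob arrays, a difference of 0.72 ± 0.17 (adjusted p = 0.0375) in the brightest of 4 probes that ran from -0.30 to 0.72. Lama2 was at 1.1, 1.0 and 0.04 on the wild-type arrays and 2.25, 1.74 and 1.93 on the ob/ob arrays, a difference of 1.26 ± 0.31 (adjusted p = 0.046), with called probes numbering 3 of 4 for Lama2 (0.83 to 1.5). The call of Lamb1 was not made without wild-type replicate 2 or 3 or without ob/ob replicate 1, 2 or 3 (adjusted p up to 0.11), and that of Lama2 was not made without wild-type replicate 2 or 3 or without ob/ob replicate 1, 2 or 3 (adjusted p up to 0.143). For the mature chains the differences were 0.27 ± 0.12 (adjusted p = 0.239) for Lama5, -0.36 ± 0.19 (adjusted p = 0.289) for Lamb2 and 0.61 ± 0.17 (adjusted p = 0.0662) for Lamc1, and none was called. The extracellular matrix genes Frem1 (1.78 ± 0.23) and Fras1 (-1.56 ± 0.24), whose proteins assemble in epithelial basement membranes, changed in opposite directions. Each was called in 1 of its 2 probes, which differed by 0.59 and 1.78 for Frem1 and by -0.48 and -1.56 for Fras1. Basement membrane calls numbered 4 with the tubule covariate, 6 with the slide row as a block and 3 without both replicate 3 arrays.

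Matrix metalloproteinases, which cut matrix proteins, included a group of neighbouring genes that rose. Of 18 metalloproteinases and their TIMP inhibitors 8 rose and none fell (44.4% called, against 7.55% over all features), with a median difference of 0.93. A further 9 of the 27 on the array were too dim to be kept. Mmp10 and Mmp27 were kept only through ob/ob arrays, so the count and the median depend in part on that filter. The stromelysin gene Mmp3 was at -1.16, -1.78 and -2.32 on the wild-type arrays and 0.90, 1.62 and 1.72 on the ob/ob arrays, a difference of 3.17 ± 0.32 (adjusted p = 0.00191). Mmp10, the second stromelysin, was not well above background on any wild-type array, read -0.95, -0.23 and -0.20 on the ob/ob arrays and was at least 25.9-fold higher (adjusted p = 0.000705). Mmp27 was not well above background on the wild-type arrays either, at -1.61, -1.46 and -2.55 in ob/ob and at least 9.77-fold higher (adjusted p = 0.00968). Mmp12, the macrophage elastase, was at -5.12, -4.82 and -6.37 on the wild-type arrays and -2.08, -3.32 and -2.51 on the ob/ob arrays, a difference of 2.80 ± 0.46 (adjusted p = 0.00983). These 4 genes are neighbours on chromosome 9. The fifth tested gene of that cluster, Mmp8, a neutrophil collagenase, lies between Mmp10 and Mmp27 and did not pass, at -3.45, -3.42 and -3.41 on the wild-type arrays and -3.33, -3.22 and -1.62 on the ob/ob arrays, a difference of 0.70 ± 0.39 (adjusted p = 0.323). Its ob/ob replicate 3 was the highest of the 6, and the other ob/ob arrays lay close to the wild-type arrays.

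Other members lie outside that cluster. The gelatinase gene Mmp2 was at 2.51, 2.14 and 1.45 on the wild-type arrays and 3.21, 3.42 and 2.94 on the ob/ob arrays (1.15 ± 0.28, adjusted p = 0.0428). Mmp14, the membrane-bound protease that activates the Mmp2 protein, was at -0.59, -0.53 and -1.02 on the wild-type arrays and 0.20, 0.39 and 0.21 on the ob/ob arrays (0.98 ± 0.17, adjusted p = 0.0125). Among the inhibitors, Timp4 varied widely in ob/ob, at -4.91, -4.53 and -4.30 on the wild-type arrays and -0.67, -3.49 and 0.40 on the ob/ob arrays (3.33 ± 0.83, adjusted p = 0.0477), with called probes numbering 1 of 3 for Timp4 (1.4 to 3.33). Timp2 and Timp3 differed by 0.17 ± 0.12 (adjusted p = 0.447) and 0.41 ± 0.24 (adjusted p = 0.342), and Timp1 by 1.09 ± 0.41 (adjusted p = 0.157), none of them called. The 3 probes of Timp3 ran from -0.76 to 0.58. Mmp2, Mmp14 and the TIMP genes are named after their values were seen. The call of Mmp2 was not made without wild-type replicate 2 or 3 or without ob/ob replicate 1, 2 or 3 (adjusted p up to 0.123), and that of Timp4 was not made without wild-type replicate 1, 2 or 3 or without ob/ob replicate 1 or 3 (adjusted p up to 0.144). Mmp14 was called in all 6 leave-one-out fits. Counts for the list were 2 with the tubule covariate, 5 with the slide row as a block and 3 without both replicate 3 arrays.

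The start regions of 3 genes of the chromosome 9 cluster are shown since all 3 rose and hold the AP-1 letters TGANTCA close to the start. They are the 250 bases before the RefSeq start in build GRCm38.p6, on the plus strand, with those letters in capitals. They were chosen after the values were seen and for holding the match. Mmp27, which also rose, and Mmp8, which was not called, are not shown, so these 3 genes do not stand for the cluster.
Mmp3, chr9:7445572-7445821: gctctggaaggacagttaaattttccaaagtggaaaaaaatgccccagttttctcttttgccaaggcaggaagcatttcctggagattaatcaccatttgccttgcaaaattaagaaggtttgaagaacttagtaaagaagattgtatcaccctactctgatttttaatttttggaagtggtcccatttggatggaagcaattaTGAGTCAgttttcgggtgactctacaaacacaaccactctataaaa
Mmp10, chr9:7502092-7502341: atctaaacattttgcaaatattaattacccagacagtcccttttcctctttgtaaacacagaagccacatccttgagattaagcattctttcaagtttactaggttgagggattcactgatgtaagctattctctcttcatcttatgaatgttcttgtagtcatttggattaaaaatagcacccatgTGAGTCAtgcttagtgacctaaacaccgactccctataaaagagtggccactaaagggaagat
Mmp12, chr9:7347124-7347373: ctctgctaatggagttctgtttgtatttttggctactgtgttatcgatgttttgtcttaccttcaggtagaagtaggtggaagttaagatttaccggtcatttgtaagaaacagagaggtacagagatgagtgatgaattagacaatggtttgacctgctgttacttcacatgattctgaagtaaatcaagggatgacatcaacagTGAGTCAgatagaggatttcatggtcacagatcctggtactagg
The letters were TGAGTCA in each, beginning 46, 63 and 44 bases before the start. Mmp12 has 2 windows in the table and the one shown is that with the match. As given above, 6.7% of all windows hold the same letters.

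Proteases of the ADAM and ADAMTS families changed in both directions, 9 of 41 higher and 3 lower (29.3% called, against 7.55% over all features). Against these 12 calls, 4 members were called with the tubule covariate, 5 with the slide row as a block and 5 without both replicate 3 arrays. Adamts14, which trims procollagen, was at 2.37, 2.3 and 2.15 on the wild-type arrays and 3.54, 3.55 and 3.76 on the ob/ob arrays, a difference of 1.34 ± 0.14 (adjusted p = 0.00234). Adamts9, which cleaves proteoglycans, was at 0.54, 0.46 and 0.86 on the wild-type arrays and 2.17, 2.03 and 2.76 on the ob/ob arrays, a difference of 1.70 ± 0.22 (adjusted p = 0.00425), with called probes numbering 3 of 4 for Adamts9 (0.64 to 2.03). Adamts16 fell, at 0.63, 0.00 and -0.51 on the wild-type arrays and -2.21, -1.86 and -1.87 on the ob/ob arrays, a difference of -2.02 ± 0.27 (adjusted p = 0.00485). Adamdec1 also fell (-3.03 ± 0.44), with 2 of the ob/ob arrays well above background. Of 35 serpins, which inhibit serine proteases, 10 rose and none fell (28.6% called), and the added fits called 4, 8 and 8. Serpine2, the protease nexin gene, was at 7.26, 7.23 and 6.84 on the wild-type arrays and 8.24, 8.44 and 8.61 on the ob/ob arrays, a difference of 1.32 ± 0.15 (adjusted p = 0.00331), with called probes numbering 1 of 2 for Serpine2 (0.39 to 1.32). Of the 10 genes, 5 were Serpina1 genes, with Serpina1a at 1.75 ± 0.26, Serpina1b at 1.53 ± 0.20 and Serpina1c at 1.70 ± 0.24. These are near-identical copies, so their probes cannot be taken as separate measurements.

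Integrins, the receptors for these matrices, rose in 7 of 24 cases and fell in 1, Itgb8 (33.3% called, against 7.55% over all features). Itga11, a collagen receptor of fibroblast-like cells, was at -3.06, -3.68 and -4.19 on the wild-type arrays and -0.20, -0.02 and -1.52 on the ob/ob arrays, a difference of 3.06 ± 0.50 (adjusted p = 0.00945). Itga9 was at 2.57, 2.54 and 2.25 on the wild-type arrays and 3.30, 3.67 and 3.96 on the ob/ob arrays, a difference of 1.19 ± 0.17 (adjusted p = 0.00641). Of 42 genes of heparan sulfate and the glycocalyx 4 rose and 6 fell (23.8% called). Besides Hs6st2, the glypican gene Gpc6 was at -3.46, -3.75 and -3.83 on the wild-type arrays and -2.00, -2.28 and -2.38 on the ob/ob arrays (1.46 ± 0.21), the hyaluronan receptor gene Cd44 at -3.66, -3.32 and -4.37 on the wild-type arrays and -2.18, -1.95 and -1.82 on the ob/ob arrays (1.80 ± 0.27) and the chain polymerase gene Ext1 at 0.81, 0.51 and 0.58 on the wild-type arrays and 1.28, 1.48 and 1.47 on the ob/ob arrays (0.77 ± 0.12). One of the 2 probes of Cd44 was called, and the other differed by 0.68. The added fits called 3, 5 and 4 integrins, and 5, 5 and 5 glycocalyx genes.

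**Figure D5:**
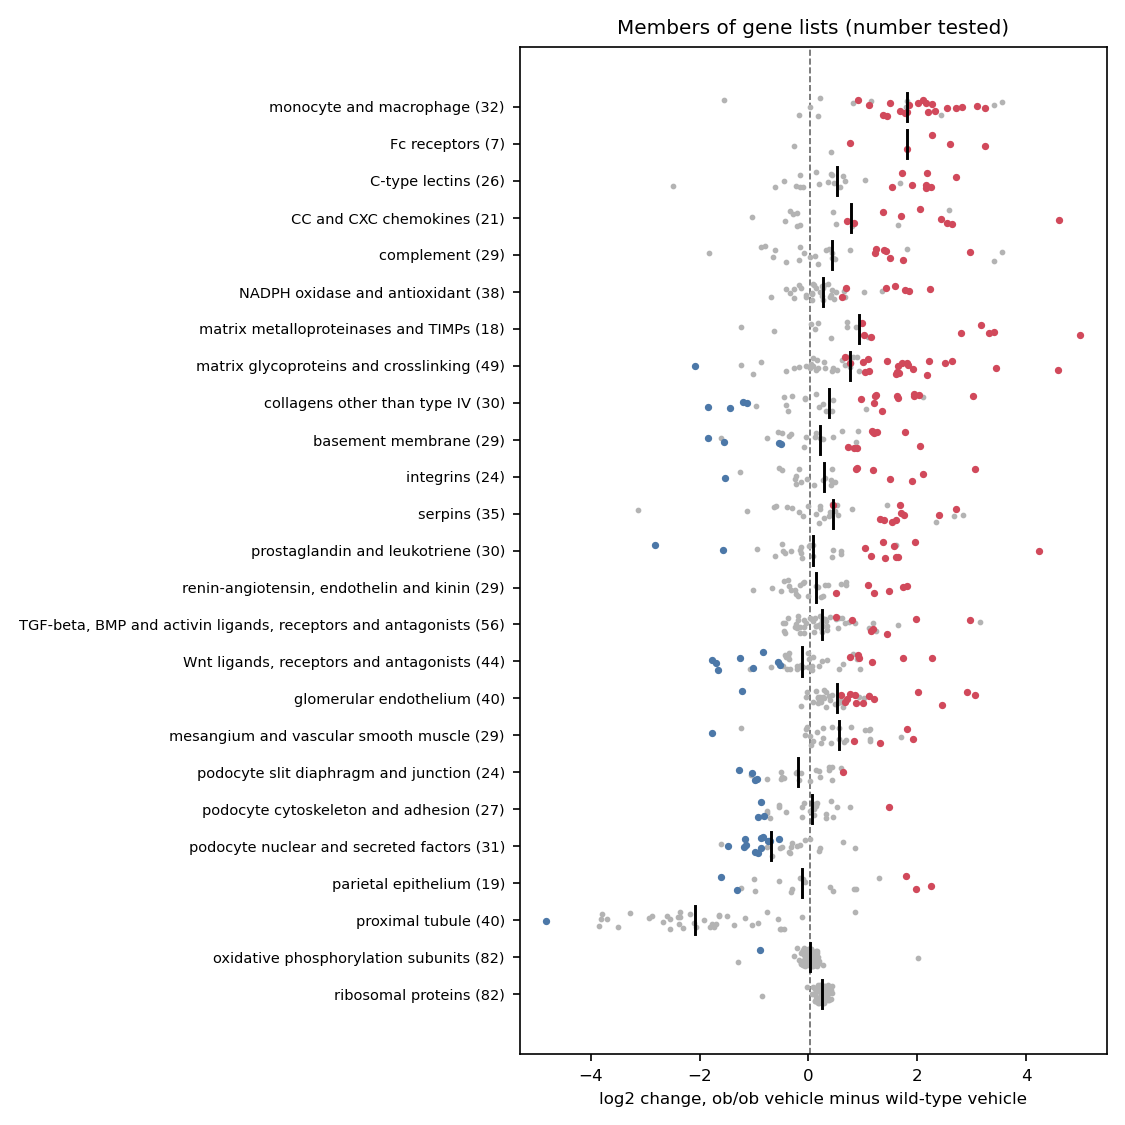
Difference between ob/ob and wild-type vehicle glomeruli (x axis, log2) for the members of 25 gene lists, with the number tested in parentheses; red points were called higher, blue lower and grey not called, black bars are list medians and the dashed line is the median of all 24174 features (0.02). The macrophage list has its median at 1.81, and the podocyte list of nuclear and secreted factors at -0.68 with no member called higher.

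Called podocyte genes were mostly lower in ob/ob glomeruli, 20 of 22 over 3 lists. Among 31 genes of nuclear and secreted factors 13 fell and none rose (41.9% called, against 7.55% over all features), with a median difference of -0.68. Of 24 slit diaphragm and junction genes 4 fell and 1 rose (20.8% called), with a median of -0.19. Of 27 cytoskeleton and adhesion genes 3 fell and 1 rose (14.8% called). The list's median difference was 0.06, which turned to -0.08 with quantile normalization. The median levels of the first list were 4.14, 4.10 and 3.83 on the wild-type arrays and 3.10, 3.34 and 3.21 on the ob/ob arrays. Those of the slit diaphragm list were 2.26, 2.60 and 2.48 on the wild-type arrays and 1.85, 1.55 and 1.76 on the ob/ob arrays. Those of the cytoskeleton list were 5.64, 5.54 and 5.3 on the wild-type arrays and 5.03, 5.01 and 5.06 on the ob/ob arrays. In all 3 lists each ob/ob array had a lower median than any wild-type array, although the median of the differences in the cytoskeleton list was above 0. The difference between the 3 lists was not tested. Called members of the first list numbered 7 with the tubule covariate, 2 with the slide row as a block and 2 without both replicate 3 arrays. Fits that left out 1 array called 3 to 7 of its members. The added fits called 5, 3 and 2 members of the slit diaphragm list, and 3, 1 and 1 of the cytoskeleton list.

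Lmx1b, a transcription factor gene required in podocytes, was at 3.77, 3.83 and 3.72 on the wild-type arrays and 2.60, 2.7 and 2.51 on the ob/ob arrays, a difference of -1.17 ± 0.14 (adjusted p = 0.00335). Thsd7a, a podocyte membrane protein and autoantigen of membranous nephropathy, was at 4.95, 5.15 and 5.18 on the wild-type arrays and 3.59, 3.79 and 3.46 on the ob/ob arrays, a difference of -1.48 ± 0.18 (adjusted p = 0.00378). Wt1, which is needed for podocyte identity, was at 6.24, 6.46 and 5.97 on the wild-type arrays and 5.32, 5.36 and 5.37 on the ob/ob arrays (-0.87 ± 0.21, adjusted p = 0.0427), a call not made without wild-type replicate 1, 2 or 3 or without ob/ob replicate 1, 2 or 3 (adjusted p up to 0.134). Vegfa, the growth factor podocytes send to the endothelium, was at 6.01, 6.02 and 6.04 on the wild-type arrays and 5.05, 5.31 and 5.54 on the ob/ob arrays (-0.72 ± 0.18, adjusted p = 0.0468), a call not made without wild-type replicate 1, 2 or 3 or without ob/ob replicate 1, 2 or 3 (adjusted p up to 0.145). For both genes the call thus depended on every array. Robo2, a guidance receptor at the slit diaphragm, fell by 0.74 ± 0.14 on the log2 scale, a call not made without wild-type replicate 2 or without ob/ob replicate 1 or 2 (adjusted p up to 0.065). Called probes numbered 5 of 6 for Thsd7a (-1.77 to -1.45), 1 of 4 for Vegfa (-0.72 to -0.62) and 6 of 7 for Robo2 (-0.96 to -0.72).

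Among slit diaphragm genes, the polarity gene Pard3b was at 2.22, 2.50 and 2.63 on the wild-type arrays and 0.89, 1.31 and 1.30 on the ob/ob arrays, a difference of -1.28 ± 0.15 (adjusted p = 0.00363). The scaffold gene Magi2 was at 4.57, 4.76 and 4.90 on the wild-type arrays and 3.64, 3.77 and 3.89 on the ob/ob arrays, a difference of -0.98 ± 0.13 (adjusted p = 0.00489), with called probes numbering 4 of 6 for Magi2 (-1.22 to -0.45). Crb2, a polarity protein whose loss causes nephrotic syndrome, was at 4.46, 4.65 and 4.45 on the wild-type arrays and 3.29, 3.67 and 3.75 on the ob/ob arrays, a difference of -0.95 ± 0.17 (adjusted p = 0.0121). Nphs1, the nephrin gene, was at 4.41, 4.57 and 4.81 on the wild-type arrays and 3.46, 3.47 and 3.77 on the ob/ob arrays, a difference of -1.03 ± 0.22 (adjusted p = 0.0268), and its call was not made without wild-type replicate 2 or 3 or without ob/ob replicate 1 or 2 (adjusted p up to 0.0922). Podxl differed by -0.75 ± 0.20 (adjusted p = 0.0554) and the actin organiser gene Synpo by -0.71 ± 0.19 (adjusted p = 0.0569). In the cytoskeleton list Synpo2 rose, at -4.05, -4.06 and -4.53 on the wild-type arrays and -2.62, -2.45 and -3.15 on the ob/ob arrays (1.47 ± 0.22, adjusted p = 0.00644), while Ptpro, a podocyte phosphatase, fell (-0.93 ± 0.17), a call not made without wild-type replicate 2 or without ob/ob replicate 1 (adjusted p up to 0.0579). Of 44 genes of hereditary nephrotic syndrome 9 fell and 2 rose (25% called, against 7.55% over all features). Scarb2, a lysosomal membrane protein, was among those that rose (1.32 ± 0.22), and the added fits called 7, 3 and 3 of the list.

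Of 40 endothelial genes 13 rose and 1 fell (35% called, against 7.55% over all features), with a median difference of 0.52. The median levels were 3.18, 3.01 and 2.66 on the wild-type arrays and 3.65, 3.87 and 3.82 on the ob/ob arrays, without overlap. Counts fell to 4 with the tubule covariate, 3 with the slide row as a block and 5 without both replicate 3 arrays. Gpihbp1, which anchors lipoprotein lipase in capillaries, was at 2.66, 2.50 and 2.41 on the wild-type arrays and 4.90, 4.55 and 5.48 on the ob/ob arrays, a difference of 2.46 ± 0.23 (adjusted p = 0.00154). Fabp4, a fatty acid carrier of capillaries, adipocytes and macrophages, was at 2.53, 2.83 and 1.92 on the wild-type arrays and 6.03, 4.33 and 5.66 on the ob/ob arrays, a difference of 2.91 ± 0.43 (adjusted p = 0.00638). Apln, a peptide of sprouting endothelium, was at -1.90, -1.85 and -2.49 on the wild-type arrays and -0.10, 0.61 and -0.70 on the ob/ob arrays, a difference of 2.01 ± 0.34 (adjusted p = 0.0103). The endothelial genes Pecam1, Kdr and Ehd3 did not pass. Pecam1 differed by 0.32 ± 0.16 (adjusted p = 0.275), Kdr by 0.23 ± 0.12 (adjusted p = 0.301), with probes from -0.17 to 0.46, and Ehd3 by 0.17 ± 0.19 (adjusted p = 0.636). The tight junction gene Cldn5 fell, at 4.65, 5.11 and 5.19 on the wild-type arrays and 3.43, 3.90 and 3.95 on the ob/ob arrays (-1.22 ± 0.23, adjusted p = 0.016), a call not made without wild-type replicate 2 or 3 or without ob/ob replicate 1 (adjusted p up to 0.0622).

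Mesangial and smooth muscle genes rose in 4 of 29 cases and fell in 1 (17.2% called, against 7.55% over all features), with a median of 0.56. Acta2, smooth muscle actin, was at 3.42, 3.11 and 2.64 on the wild-type arrays and 5.21, 5.41 and 4.30 on the ob/ob arrays, a difference of 1.91 ± 0.31 (adjusted p = 0.00914). Its 3 probes differed by 0.19 to 2.10. The marker genes Pdgfrb (0.04 ± 0.25, adjusted p = 0.945) and Gata3 (0.09 ± 0.31, adjusted p = 0.9) did not pass. The added fits called 1, 2 and 5 of the list. Parietal epithelial cells line the capsule around the tuft, and 3 of 19 of their genes rose and 2 fell (26.3% called). Aldh1a2, an enzyme of retinoic acid synthesis, was at 2.72, 2.48 and 2.36 on the wild-type arrays and 4.01, 4.76 and 4.70 on the ob/ob arrays, a difference of 1.97 ± 0.20 (adjusted p = 0.0022). Cp, the ceruloplasmin gene, was at 3.09, 2.67 and 2.68 on the wild-type arrays and 4.76, 4.78 and 5.65 on the ob/ob arrays, a difference of 2.25 ± 0.26 (adjusted p = 0.00331). Krt7 and Ncam1 fell, with differences of -1.32 ± 0.23 and -1.60 ± 0.18. The count of parietal calls was 5 with the slide row as a block and without both replicate 3 arrays, and 3 with the tubule covariate.

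Tubule genes varied more within the groups than the other cell type lists. Of 40 proximal tubule markers 39 had a difference below 0 with a median of -2.09, and 1 was called (2.5%, against 7.55% over all features). It was Slc22a7, an organic anion transporter gene. It was not well above background on any ob/ob array, read -3.77, -0.48 and 1.82 on the wild-type arrays, and was at least 18.7-fold lower. That bound was 7.53-fold without wild-type replicate 3 and 52.3-fold without wild-type replicate 1, and the call was not made without wild-type replicate 2 or 3 or without ob/ob replicate 1, 2 or 3 (adjusted p up to 0.131). The phosphate transporter gene Slc34a1 was at 1.83, 2.09 and 4.98 on the wild-type arrays and 0.86, 1.72 and -2.49 on the ob/ob arrays, a difference of -2.94 ± 1.35 (adjusted p = 0.233). Lrp2, the megalin gene, was at 0.27, -0.81 and 3.31 on the wild-type arrays and -1.08, -0.12 and -3.13 on the ob/ob arrays, a difference of -2.37 ± 1.28 (adjusted p = 0.309). Without both replicate 3 arrays the median difference of the list was -0.34. Distal nephron genes had a median of -0.03, with Umod at 2.42, 3.32 and 6.18 on the wild-type arrays and 1.1, 3.97 and 3.83 on the ob/ob arrays (-1.01 ± 1.02, adjusted p = 0.601) and a single call, Egf, which fell by 1.26 ± 0.22 on the log2 scale.

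Of 56 genes of TGF-beta, BMP and activin signalling 7 rose and none fell (12.5% called, against 7.55% over all features). Inhba, which encodes the subunit of activin A, was at -3.04, -3.58 and -4.34 on the wild-type arrays and -0.28, -1.07 and -0.72 on the ob/ob arrays, a difference of 2.96 ± 0.34 (adjusted p = 0.00335). Bmp2, a bone morphogenetic protein, was at 1.24, 0.32 and 0.49 on the wild-type arrays and 2.66, 2.49 and 2.83 on the ob/ob arrays, a difference of 1.98 ± 0.30 (adjusted p = 0.00754). Fstl3, which binds and blocks activins, was at -0.63, -0.85 and -0.53 on the wild-type arrays and 0.77, 0.24 and 0.56 on the ob/ob arrays, a difference of 1.19 ± 0.19 (adjusted p = 0.00817). The ligand and its antagonist were both higher on every ob/ob array. Fstl1 rose by 1.44 ± 0.22 in its brightest probe, and its 3 probes ran from -0.17 to 1.44. Tgfb1 did not pass, at 1.02, 0.93 and 0.49 on the wild-type arrays and 1.61, 1.54 and 1.34 on the ob/ob arrays, a difference of 0.68 ± 0.20 (adjusted p = 0.0749). Called members of the list numbered 2 with the tubule covariate, 7 with the slide row as a block and 2 without both replicate 3 arrays.

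The Wnt pathway changed at several levels in both directions, 6 of 44 genes higher and 8 lower (31.8% called, against 7.55% over all features). The ligand gene Wnt2 was at -3.15, -3.69 and -3.16 on the wild-type arrays and -1.27, -0.91 and -1.02 on the ob/ob arrays, a difference of 2.27 ± 0.22 (adjusted p = 0.00157). Another ligand gene, Wnt8b, fell by 1.70 ± 0.18 on the log2 scale with 1 of the ob/ob arrays well above background. The receptor gene Fzd1 was at 1.12, 0.82 and 0.53 on the wild-type arrays and 2.10, 2.08 and 1.78 on the ob/ob arrays, a difference of 1.16 ± 0.18 (adjusted p = 0.00729). Znrf3, which removes Wnt receptors from the membrane, was at -0.04, 0.17 and 0.26 on the wild-type arrays and -1.13, -0.72 and -0.82 on the ob/ob arrays, a difference of -1.02 ± 0.16 (adjusted p = 0.00803). The antagonist gene Sfrp2 fell by 1.78 ± 0.41 on the log2 scale, a call not made without wild-type replicate 1 or 2 or without ob/ob replicate 1 or 3 (adjusted p up to 0.113). Wnt calls numbered 3 with the tubule covariate, 5 with the slide row as a block and 6 without both replicate 3 arrays.

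Growth factors of vessels rose in 8 of 31 cases and fell in 2 (32.3% called, against 7.55% over all features). Vegfa was among those that fell. Calls in the added fits numbered 5, 6 and 6. Vegfd, a ligand of lymphatic and vascular receptors, was at 2.05, 1.95 and 1.84 on the wild-type arrays and 4.81, 4.27 and 4.98 on the ob/ob arrays, a difference of 2.74 ± 0.23 (adjusted p = 0.00115), opposite in sign to Vegfa. Angptl4, an inhibitor of lipoprotein lipase, was at 2.25, 2.03 and 1.06 on the wild-type arrays and 4.79, 4.38 and 5.71 on the ob/ob arrays, a difference of 3.18 ± 0.40 (adjusted p = 0.00391). Pdgfa, a mitogen for mesangial cells, was at 4.04, 3.78 and 3.44 on the wild-type arrays and 4.94, 4.75 and 4.80 on the ob/ob arrays, a difference of 1.07 ± 0.17 (adjusted p = 0.00778). The brighter of the 2 probes assigned to Angpt4 rose by 1.29 ± 0.19 and the other by 4.43. The array annotation places the brighter probe on chromosome 14. Whether that probe reads Angpt4 was not checked, so its 1.29 may not measure this gene. Among 26 fibroblast growth factors and receptors 3 fell and 1 rose (15.4% called), and the added fits called 2, 3 and 1. Fgfr4 was at 0.44, 1.02 and 1.11 on the wild-type arrays and -0.70, -0.65 and -0.70 on the ob/ob arrays (-1.54 ± 0.21, adjusted p = 0.00538), with called probes numbering 2 of 3 for Fgfr4 (-1.97 to -0.43). The remaining called members were Fgfbp1, Fgfr1 and Fgfrl1, with Fgfr1 at -0.59 ± 0.14 and Fgfrl1 at 0.61 ± 0.12. The call of Fgfr1 was not made without wild-type replicate 1, 2 or 3 or without ob/ob replicate 1, 2 or 3 (adjusted p up to 0.136). That of Fgfrl1 was not made without wild-type replicate 2 or without ob/ob replicate 1, 2 or 3 (adjusted p up to 0.0794).

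Guidance molecules were called in both directions, 9 of 67 higher and 6 lower (22.4% called, against 7.55% over all features). Against these 15 calls, 7 members were called with the tubule covariate, 6 with the slide row as a block and 6 without both replicate 3 arrays. Fits that left out 1 array called 6 to 13. Sema3d and Sema3a, secreted semaphorins, rose. Sema3d was at -4.31, -3.66 and -3.67 on the wild-type arrays and -1.21, -1.4 and -1.52 on the ob/ob arrays (2.51 ± 0.19, adjusted p = 0.000702). Sema3a, which podocytes make and which alters their slit diaphragms in mice, was not well above background on any wild-type array and at least 4-fold higher (adjusted p = 0.00538), with called probes numbering 2 of 3 for Sema3a (1.59 to 3.02). Plxnc1, a semaphorin receptor of leukocytes, was at -2.41, -2.93 and -2.40 on the wild-type arrays and -1.08, -1.15 and -0.62 on the ob/ob arrays (1.63 ± 0.19, adjusted p = 0.0035). The netrin G gene Ntng2 fell, at -1.19, -1.0 and -0.91 on the wild-type arrays and -2.61, -2.03 and -2.65 on the ob/ob arrays (-1.4 ± 0.18, adjusted p = 0.00442), with called probes numbering 3 of 4 for Ntng2 (-1.52 to -1.12).

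Calls among vasoactive genes were rises. Of 29 genes of the renin-angiotensin, endothelin and kinin systems 6 rose and none fell (20.7% called, against 7.55% over all features). Counts were 0 with the tubule covariate, 1 with the slide row as a block and 3 without both replicate 3 arrays. Edn1, the endothelin gene, was at 0.67, 0.70 and 0.14 on the wild-type arrays and 2.27, 2.23 and 1.45 on the ob/ob arrays, a difference of 1.48 ± 0.24 (adjusted p = 0.00901). Bdkrb2, the bradykinin receptor gene, was not well above background in wild type and at least 1.36-fold higher (adjusted p = 0.0129). Ramp3, which adapts receptors to adrenomedullin, was at 3.55, 3.19 and 3.78 on the wild-type arrays and 4.54, 4.47 and 5.10 on the ob/ob arrays, a difference of 1.2 ± 0.21 (adjusted p = 0.0131). Ece1, which processes endothelin, rose by 0.51 ± 0.12 in the brightest of 3 probes that ran from -0.25 to 0.51, a call not made without wild-type replicate 1, 2 or 3 or without ob/ob replicate 1, 2 or 3 (adjusted p up to 0.12).

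Prostaglandin and leukotriene enzymes rose in 9 of 30 cases and 2 genes fell (36.7% called, against 7.55% over all features). Alox5ap, which presents arachidonic acid to lipoxygenase, was at 1.13, 0.86 and 0.71 on the wild-type arrays and 2.77, 2.37 and 3.44 on the ob/ob arrays, a difference of 1.96 ± 0.26 (adjusted p = 0.00481). Ltc4s, the leukotriene C4 synthase, was at 2.25, 2.09 and 1.51 on the wild-type arrays and 3.22, 3.28 and 3.6 on the ob/ob arrays, a difference of 1.42 ± 0.21 (adjusted p = 0.00661). Ptgs1, a cyclooxygenase, was at 2.04, 1.92 and 1.75 on the wild-type arrays and 3.22, 2.78 and 3.19 on the ob/ob arrays, a difference of 1.16 ± 0.16 (adjusted p = 0.00485), with called probes numbering 1 of 2 for Ptgs1 (0.57 to 1.16). Hpgds, a prostaglandin D synthase of immune cells, was not well above background in wild type and at least 4.37-fold higher (adjusted p = 0.00604). By contrast Ptgds, the lipocalin-type synthase of the same prostaglandin, fell, at 0.10, -0.67 and -0.02 on the wild-type arrays and -2.06, -1.1 and -2.15 on the ob/ob arrays (-1.57 ± 0.31, adjusted p = 0.02). Ptger2, a prostaglandin E receptor, fell by 2.82 ± 0.65 on the log2 scale. These last 2 are named after their values were seen. The call of Ptgds was not made without wild-type replicate 1 or 3 or without ob/ob replicate 1 or 3 (adjusted p up to 0.0759), and that of Ptger2 was not made without wild-type replicate 1, 2 or 3 (adjusted p up to 0.119). Counts for the list were 5 with the tubule covariate, 5 with the slide row as a block and 7 without both replicate 3 arrays.

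Receptors and channels better known from neurons held large differences in single genes. Of 26 GABA, glycine and glutamate receptor genes 2 rose and 3 fell (19.2% called), and the added fits called 3, 3 and 3. Gabra5, a GABA-A subunit, was at 1.64, 1.34 and 1.38 on the wild-type arrays and 2.93, 2.81 and 3.02 on the ob/ob arrays, a difference of 1.47 ± 0.13 (adjusted p = 0.0013). That is the brighter of its 2 probes, and the other was not called, with a difference of 0.16. Gabra3, well above background on 1 wild-type array, was at -5.91, -4.53 and -5.16 on the wild-type arrays and -0.39, -0.98 and 0.40 on the ob/ob arrays, a difference of 4.87 ± 0.43 (adjusted p = 0.00132). The glutamate receptor gene Grm7 was not well above background in ob/ob, read -2.08, -2.28 and -3.42 on the wild-type arrays and was at least 5.45-fold lower (adjusted p = 0.0019). The serotonin receptor gene Htr7 was at -1.76, -2.10 and -1.95 on the wild-type arrays and -4.55, -4.70 and -5.89 on the ob/ob arrays (-3.11 ± 0.41, adjusted p = 0.00459). Adra2c, an adrenergic receptor gene, was at -0.88, -0.53 and -1.62 on the wild-type arrays and -3.27, -3.36 and -4.98 on the ob/ob arrays (-2.86 ± 0.45, adjusted p = 0.00826). For both, 2 of the ob/ob arrays were well above background. The muscarinic receptor gene Chrm1 rose, at 3.24, 3.17 and 2.91 on the wild-type arrays and 4.20, 4.43 and 4.72 on the ob/ob arrays (1.34 ± 0.18, adjusted p = 0.00485). Among 85 voltage-gated channels 6 rose and 6 fell (14.1% called, against 7.55% over all features), and the added fits called 6, 8 and 8. The calcium channel gene Cacna1b was at 0.63, 0.19 and 0.23 on the wild-type arrays and 1.66, 1.58 and 1.77 on the ob/ob arrays (1.32 ± 0.15, adjusted p = 0.00325) in 1 of its 2 probes, and the other was not called, with a difference of 0.07. Of 19 RGS genes, which shorten G protein signals, 6 rose and none fell (31.6% called), and the added fits called 1, 2 and 1.

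Lipid handling genes rose in 10 of 42 cases and fell in 1 (26.2% called, against 7.55% over all features). Against these 11 calls, 5 members were called with the tubule covariate, 9 with the slide row as a block and 6 without both replicate 3 arrays. Plin2, a coat protein of lipid droplets, was at 2.13, 1.99 and 1.80 on the wild-type arrays and 3.46, 3.08 and 3.25 on the ob/ob arrays, a difference of 1.29 ± 0.14 (adjusted p = 0.00282), with called probes numbering 1 of 2 for Plin2 (0.51 to 1.29). Among 35 cholesterol and lipogenesis genes 4 rose and 1 fell (14.3% called), and the added fits called 3, 3 and 3. Apoe, a lipoprotein component also made by macrophages, was at 4.35, 4.34 and 3.63 on the wild-type arrays and 5.64, 5.45 and 5.85 on the ob/ob arrays, a difference of 1.54 ± 0.21 (adjusted p = 0.00524). Dhcr7, a late enzyme of cholesterol synthesis, was at -0.08, 0.02 and -0.01 on the wild-type arrays and -1.23, -0.81 and -0.85 on the ob/ob arrays, a difference of -0.94 ± 0.13 (adjusted p = 0.00558). Plin2 and Apoe were thus higher and Dhcr7 lower on every ob/ob array than on any wild-type array. Of 82 subunits of oxidative phosphorylation 1 was called, Cox7b2 (-0.89 ± 0.14), and the list's median was 0.02. Of 32 glycolysis and glucose transport genes 3 rose (9.38%, near the 7.55% over all features), and the added fits called none. The lactate exporter gene Slc16a3 was at -0.94, -1.15 and -1.26 on the wild-type arrays and -0.34, -0.40 and -0.17 on the ob/ob arrays (0.81 ± 0.14, adjusted p = 0.012).

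Calls among other regulators were uneven. Of 30 cell cycle inhibitor and p53 target genes 5 rose (16.7%, against 7.55% over all features), while the added fits called 2, 2 and 5. The calls were led by Cdkn2c, an inhibitor of cyclin-dependent kinases, at -0.78, -0.76 and -1.24 on the wild-type arrays and 0.74, 0.65 and 0.73 on the ob/ob arrays (1.63 ± 0.14, adjusted p = 0.00132), and by the cyclin gene Ccnd1 (1.06 ± 0.15). None of 31 genes of the cell cycle and DNA replication and none of 22 clock genes was called in limma, and 3 and 2 of them had an unadjusted p under 0.05. Of the 31 cell cycle differences 29 were above 0, with a median of 0.28. In the Hox family 3 of 30 rose and 2 fell (16.7% called), and the added fits called 1, 1 and 2. Hoxd10 was at -4.15, -4.04 and -3.63 on the wild-type arrays and -2.38, -2.40 and -2.61 on the ob/ob arrays (1.48 ± 0.18, adjusted p = 0.00382). Of 37 genes of insulin, IGF, leptin and adiponectin signalling 2 rose (5.41%, below the share over all features), and the added fits called 1, 1 and 1. Cdh13, a receptor that binds adiponectin on endothelium, was at -0.59, -0.34 and -0.65 on the wild-type arrays and 1.52, 1.21 and 1.32 on the ob/ob arrays, a difference of 1.88 ± 0.17 (adjusted p = 0.00132). Lepr, which encodes the leptin receptor, was at 2.53, 2.53 and 3.00 on the wild-type arrays and 2.42, 2.32 and 2.65 on the ob/ob arrays and was not called (-0.22 ± 0.18, adjusted p = 0.5), and its 3 probes ran from -0.88 to 0.25. No ribosomal protein gene of 82 was called in limma, although 80 of the 82 differed upward with a median of 0.25 and 31 had an unadjusted p under 0.05. That median was 0.14 with quantile normalization.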

How the data were processed

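Total RNA of isolated glomeruli was labelled with Cy3 and hybridised to Agilent mouse arrays, 1 sample an array. The deposited scanner files hold the processed signal intensity of each spot, made by the authors with Agilent Feature Extraction 11.5.1.1 (the submitters' processing notes). The authors also deposited a value table on a log2 scale, used as an alternative, whose columns correlated at 1 with the same arrays and whose centring nearly matches the 75th percentile. Control spots and outlier spots were left out, spots of a probe were averaged, and log2 signal minus the array's 75th percentile was taken. Of 56605 probes, 36671 were kept because all arrays of 1 or more groups read them well above background, and the brightest kept probe stood for a gene, which gave 24174 features, 18010 of them named. Names were updated through RefSeq accessions. Values of some genes that the naming rule covers are not reported here. limma 3.58.1 in R 4.3.3 was fitted to all 9 arrays in 3 groups, with Benjamini-Hochberg adjustment, and was tested on simulated data.

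Named genes were, in each direction, the 12 called with the smallest p and the 8 with the largest difference, well above background on all 6 arrays and without overlap, then up to 4 called members of each of 66 lists with the smallest p, and fixed anchor genes. Clone-like names were skipped. The members and lists were chosen with earlier results of these data known, and the pattern for interleukin names was corrected after values were seen. Start regions came from the RefSeq table for GRCm38.p6. Alternatives were other normalizations, background corrections, filters, probe rules, blocks, array weights and arrays left out.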

Additional observations from a re-analysis of the deposited data

How the results depend on the processing

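The number of features called higher and lower was 1181 and 645. It was within 1.5 times of that with quantile normalization (1077 and 680), normexp background correction (1185 and 593), centring on the array median (1184 and 470), a filter for signal well above background on all 9 arrays (1208 and 641), the mean of a gene's probes (1050 and 744), only the 6 arrays of the contrast (834 and 481), the slide as a block (989 and 530) and the authors' value table (1185 and 645). Without the filter on dim probes it was 680 and 326, and with array weights 2369 and 1815. Leaving out 1 array gave 635 to 1062 higher and 278 to 640 lower. Among the settings chosen after seeing the data, the slide row as a block gave 519 and 211, the tubule covariate 351 and 222, leaving out both replicate 3 arrays 444 and 226, and the first slide row alone, with 1 ob/ob array assumed to vary like the other groups, 112 and 63. With the replicate block the counts were 937 and 472. Deviations of same-numbered arrays from their group means correlated at 0.165, -0.224 and 0.04. With 3 arrays a group these values cannot settle whether same-numbered samples were paired, and the main fit used no pairing. All 1826 called features kept their sign in each setting except without the filter (1825), with the mean of probes (1818) and with the stricter filter, where 1599 were tested. Of 240 genes named by the rule, none reversed. A change of sign counted as a reversal only if the gene was called with the main settings or with the alternative. Calls were lost for 6 with quantile normalization, 34 without the filter, 69 with the slide row, 86 with the tubule covariate and 78 without both replicate 3 arrays. The cause was not tested. The number of arrays, 3 a group, limits the precision, and dim genes give only bounds.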

Other observations

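Features were also counted by their distance from Lep, whose mutation separates the groups. Of features within 5 Mb of the Lep probe on chromosome 6, 7 of 82 were called (8.54%). Within 10 Mb 11 of 142 were called (7.75%), and within 20 Mb 29 of 300 (9.67%), of which 16 were higher and 13 lower. On the rest of the chromosome 86 of 997 were called (8.63%), and over all features 7.55%. The shares were not tested against each other.

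Of 295 solute carrier genes 21 rose and 5 fell, 8.81% against the 7.55% called over all features, so this count does not set them apart. The added fits called 8, 10 and 9. The riboflavin transporter gene Slc52a3 rose by 2.02 ± 0.17 (adjusted p = 0.00115), from -0.11, -0.46 and -0.08 to 1.83, 1.79 and 1.80. Slc6a6, the taurine transporter, rose by 1.32 ± 0.19 (adjusted p = 0.00621), and Slc6a6 levels were 4.20, 4.38 and 4.09 on the wild-type arrays and 5.67, 5.18 and 5.78 on the ob/ob arrays, with called probes numbering 2 of 3 for Slc6a6 (0.68 to 1.32). Of 32 galectin, annexin and S100 genes 10 rose and 1 fell (34.4% called), and the added fits called 3, 4 and 4. Lgals1, which encodes galectin-1, was at 3.29, 3.10 and 2.66 on the wild-type arrays and 4.85, 4.85 and 5.15 on the ob/ob arrays, a difference of 1.93 ± 0.18 (adjusted p = 0.00157). The exception was Anxa4, at 3.41, 3.61 and 3.39 on the wild-type arrays and 2.51, 2.58 and 2.87 on the ob/ob arrays, a difference of -0.81 ± 0.14 (adjusted p = 0.0104), with called probes numbering 2 of 3 for Anxa4 (-1.4 to -0.75).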
